A study of Mus musculus with 35 samples.

Results

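Untreated inguinal adipocyte cultures of the SV129 mouse strain were compared at day 7 and at day 3 of culture. The arrays labelled SV129, with no treatment and a culture duration of 7 days (4 cultures) or 3 days (4 cultures), were taken, which are 8 of the 35 arrays of the series. The cells were precursors isolated from the inguinal subcutaneous fat, a white depot, and grown in serum with insulin and ascorbate. None of the 8 cultures received rosiglitazone, which activates PPARG, or norepinephrine, the agents given to other cultures of the series. In the study's design the cells at day 3 still divide, while those at day 7 count as mature fat cells, and the comparison asks how gene expression differs between those times. The replicates were 1, 4, 5 and 6 at day 7 and 1, 3, 5 and 6 at day 3, and wherever 4 values are given below they follow that order. The labels do not tie the cultures to animals, so the p-values measure the spread between these cultures. The sources used here do not give the sex or age of the mice.

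When a precursor becomes a white fat cell, it leaves the cell cycle, and the transcription factors PPARG and CEBPA switch on the genes that take up, build and store triglyceride. Mature fat cells also secrete hormones such as adiponectin and burn part of their fatty acids in mitochondria. Cells short of oxygen stabilise the factor HIF1A, which raises glycolytic enzymes, glucose and lactate transporters and its own prolyl hydroxylases. Primary cultures from fat can hold fibroblast-like precursors and macrophages beside fat cells, and an array of the whole culture measures them together.

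Each culture was hybridised to 1 Mouse Exon 1.0 ST array, and the values are log2 intensities of 17958 transcript clusters, each the summary of the probes of 1 gene locus. A difference of 1 on this scale is a doubling. Defining genes of fat cells were bright at both times. Adipoq averaged 11.80 ± 0.33 at day 7 and 12.63 ± 0.04 at day 3, and Plin1 averaged 11.20 ± 0.11 at day 7 and 12.02 ± 0.05 at day 3 (SD, n = 4 each), where the lower quartile of an array lay at 6.37 or above. Day 7 arrays 5 and 6 stood apart from day 7 arrays 1 and 4. On the first principal component of the 8 arrays (64.2% of the variance) the day 7 arrays lay at 6.42, 7.77, 27.45 and 26.29, against −16.39, −18.09, −15.50 and −17.95 for the day 3 arrays. The median SD of a cluster was 0.102 at day 7 and 0.065 at day 3. The Y-linked genes Kdm5d and Eif2s3y were higher on the same arrays, and did not pass between the days (adjusted p = 0.15 and 0.17). Their mean, relative to the day 3 mean of the strain, was 0.022, 0.032, 0.430 and 0.441 on the day 7 arrays, and −0.052 to 0.071 on the day 3 arrays. On the C57BL/6J day 7 arrays 2, 3, 4 and 6 it was 0.365, −0.052, −0.010 and 0.632. The part of this difference in the results was not tested. Counts of each group are given with the 8 arrays, and for the main groups also without day 7 arrays 5 and 6.

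Between day 7 and day 3, 1291 clusters were higher (7.19% of those tested) and 927 were lower (5.16%) at a limma adjusted p under 0.01. The median difference over all clusters was 0.012. With a change of at least 1.5-fold asked for as well, 373 were higher and 222 were lower. Without day 7 arrays 5 and 6, 532 clusters were higher (2.96%) and 410 were lower (2.28%). All 2218 clusters called with the 8 arrays kept their direction in that reduced comparison, and 888 of them still passed. Its arrays had also entered the calls, so the kept direction is not independent of them. Leaving out 1 of the 4 day 3 arrays, or day 7 array 5 or 6, left 560 to 790 clusters higher and 420 to 542 lower. The C57BL/6J strain, cultured in the same way and sharing no array with SV129, had 624 clusters higher (3.47%) and 516 lower (2.87%).

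Genes of fat storage were lower at day 7 than at day 3. Of 16 measured genes of lipid uptake, droplets and lipolysis, 8 were lower and 1 was higher, where 5.16% of all clusters were lower, and the median difference was −0.44. The perilipin gene Plin1, whose product coats lipid droplets, read 11.32, 11.25, 11.11 and 11.11 at day 7, against 11.97, 12.08, 11.98 and 12.04 at day 3. It was 1.76-fold lower (log2 difference −0.82, SE 0.06, adjusted p = 6.7e-05). Aqp7, a glycerol channel, read 10.64, 10.50, 10.59 and 10.59 at day 7, against 11.40, 11.49, 11.38 and 11.59 at day 3 (−0.88, SE 0.06, adjusted p = 4e-05). In both genes every day 7 culture lay below every day 3 culture, and the 4 day 7 cultures lay close together. Cidec, which joins small droplets into large ones, read 8.57, 8.29, 7.73 and 7.90 at day 7, against 8.92, 9.29, 8.92 and 9.36 at day 3 (−1.01, SE 0.18). Fabp4, a carrier of fatty acids, read 11.72, 11.68, 11.04 and 11.16 at day 7, against 12.12, 12.25, 12.10 and 12.29 at day 3 (−0.79, SE 0.15). Here the fall was deeper on day 7 arrays 5 and 6. The one gene of the group that rose was Angptl4, an inhibitor of lipoprotein lipase, with 11.69, 11.63, 12.12 and 12.11 at day 7, against 11.21, 11.19, 11.19 and 11.23 at day 3 (0.69, SE 0.11). In whole cultures, fewer fat cells and less of these RNAs per fat cell cannot be told apart. The group had 6 genes lower without day 7 arrays 5 and 6, and a median of −0.43, and without day 3 array 3 or 6 or day 7 array 6 it had 4, 4 and 5 lower. Cidec did not pass without day 3 array 3 or 6 or day 7 array 6 (adjusted p 0.013 to 0.016) or without day 7 arrays 5 and 6 together (0.019), nor did Fabp4 without any 1 day 3 array or day 7 array 6 (0.013 to 0.019).

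Some of the enzymes that build triglyceride were lower. Of 16 measured, 5 were lower and 11 did not pass, where 5.16% of all clusters were lower, and the median was −0.20. The 5 were Gpat3 and Gpam, which start the chain on glycerol phosphate, Lpin1, which makes diacylglycerol, and Dgat1 and Dgat2, which add the last fatty acid. Dgat2 read 10.74, 10.58, 10.52 and 10.53 at day 7, against 11.38, 11.59, 11.39 and 11.60 at day 3, a 1.86-fold lower level (−0.90, SE 0.07, adjusted p = 9.2e-05). Dgat1 and Gpat3 were 1.86-fold and 1.87-fold lower, with day 7 and day 3 values that did not overlap. Gpam did not pass without day 3 array 3, 5 or 6 or day 7 array 5 or 6 (adjusted p 0.011 to 0.017) or without day 7 arrays 5 and 6 together (0.035). Their relatives Agpat1, Agpat3, Gpat4 and Lpin3 did not pass, with differences from −0.16 to −0.02. Among 15 genes of fatty acid synthesis 4 were lower, the largest being Fasn, the fatty acid synthase (−0.45, SE 0.06). Elovl6 (−0.38) lengthens fatty acids and Acly (−0.37) supplies acetyl-CoA. Acacb, the mitochondrial acetyl-CoA carboxylase, was higher by 0.26, but not without day 3 array 1, 5 or 6 or day 7 array 5 or 6 (adjusted p 0.011 to 0.012), nor without day 7 arrays 5 and 6 together (0.027). The desaturase gene Scd1 had a difference of −0.01 and did not pass.

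Among 18 regulators of fat cell identity 7 were lower, 2 were higher and 9 did not pass, with a median of −0.18, where 5.16% of all clusters were lower. Cebpa read 9.90, 9.99, 9.84 and 9.86 at day 7, against 10.54, 10.55, 10.57 and 10.62 at day 3, which is 1.60-fold lower (−0.68, SE 0.05, adjusted p = 5.8e-05). Pparg read 11.84, 11.98, 11.90 and 11.95 at day 7, against 12.22, 12.16, 12.13 and 12.22 at day 3 (−0.26, SE 0.05, adjusted p = 0.0045). The groups did not overlap for either gene. Pparg passed without day 7 array 1 or 4, but not without any other single array (adjusted p 0.011 to 0.019) or without day 7 arrays 5 and 6 together (0.027). Rxrg, a partner receptor of PPARG outside that list, read 8.34, 8.31, 8.25 and 8.34 at day 7, against 9.22, 9.24, 9.21 and 9.43 at day 3 (−0.96, SE 0.06, adjusted p = 2.7e-05). Srebf1, which drives lipid synthesis genes, was lower by 0.38 and Zfp423, a commitment factor of preadipocytes, by 0.50. The 2 higher genes were Cebpb (0.37), which acts early in differentiation, and Klf5 (0.35), a factor that induces Pparg. Without day 7 arrays 5 and 6 neither of those passed and 2 genes were lower, with a median of −0.13. Klf5 also did not pass without day 3 array 3, 5 or 6 or day 7 array 5 or 6 (adjusted p 0.016 to 0.021).

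Among secreted products of fat cells, adiponectin and angiotensinogen were lower. Adipoq read 12.25, 11.85, 11.55 and 11.57 at day 7, against 12.61, 12.66, 12.59 and 12.66 at day 3 (−0.83, SE 0.14, adjusted p = 0.0025), and did not pass without day 3 array 3 or 6 (adjusted p 0.01 and 0.011). Agt was lower by 0.74 (SE 0.10). Retn, the gene of resistin, read 11.83, 11.39, 9.15 and 9.74 at day 7, against 11.96, 12.17, 12.08 and 12.29 at day 3, and with a difference of −1.60 (SE 0.51, adjusted p = 0.049) it did not pass. Its day 7 values split between arrays 1 and 4, near day 3, and arrays 5 and 6, far below. Lep, the gene of leptin, lay under the lower quartile of the arrays, with 4.97 to 5.40 at day 7 and 5.22 to 5.37 at day 3.

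**Figure D1:**
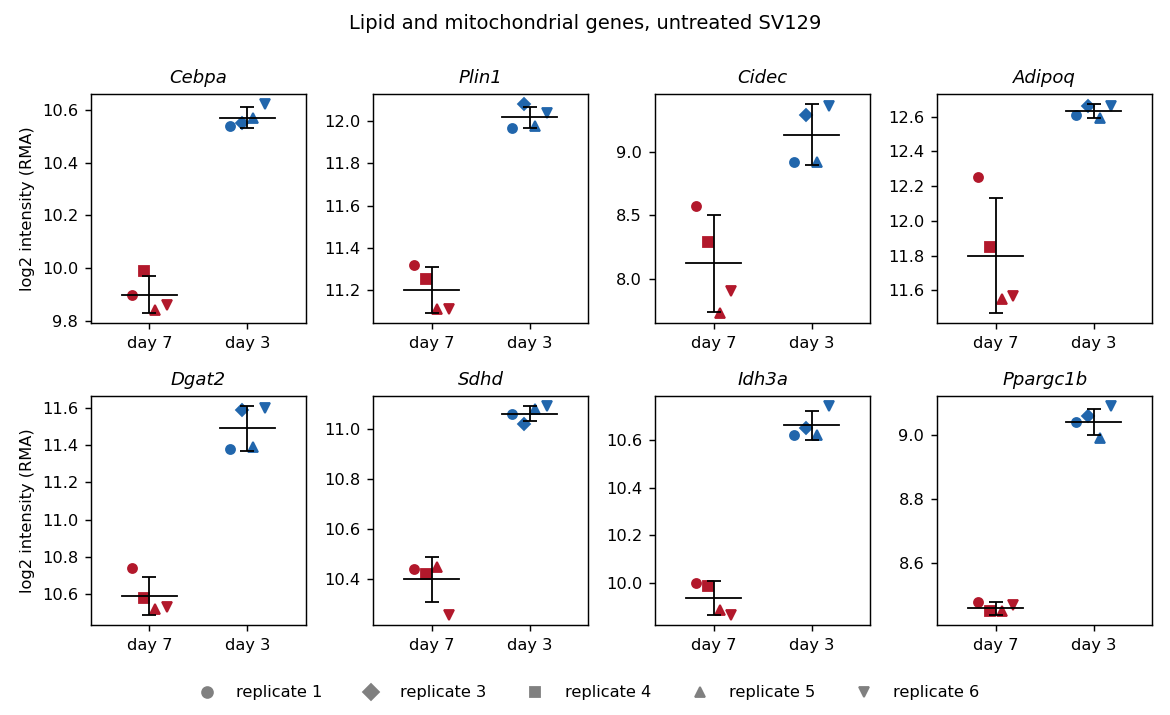
Log2 intensity of 8 genes of lipid metabolism and mitochondria on each untreated SV129 array, day 7 left and day 3 right. Points are arrays, with the marker giving the replicate number, horizontal bars are means and whiskers SD (n = 4 each). All 8 genes lie lower at day 7, with no overlap between days, and in Cidec and Adipoq replicates 5 and 6 are the lowest.

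Many mitochondrial genes of fat burning and respiration were lower, by at most 0.72. Of 18 measured genes of fatty acid oxidation, 13 were lower and 1 was higher (median −0.34), where 5.16% of all clusters were lower and 7.19% higher. Among 24 genes of the respiratory chain 14 were lower and 1 was higher (median −0.31), and 23 of the 24 had a negative difference. The tricarboxylic acid cycle had 11 of 17 genes lower and a negative difference in all 17 (median −0.30). Idh3a, a subunit of isocitrate dehydrogenase, read 10.00, 9.99, 9.89 and 9.87 at day 7, against 10.62, 10.65, 10.62 and 10.74 at day 3 (−0.72, SE 0.05, adjusted p = 5.8e-05). Sdhd, an anchor of succinate dehydrogenase in the inner membrane, read 10.44, 10.42, 10.45 and 10.26 at day 7, against 11.06, 11.02, 11.08 and 11.09 at day 3 (−0.67, SE 0.05, adjusted p = 8.1e-05). Every day 7 array lay below every day 3 array for both genes, and Sdhd was lowest on day 7 array 6. Etfb (−0.61), Acaa2 (−0.54) and Hadh (−0.53) carry electrons or cleave acyl chains in fatty acid oxidation, and Cs (−0.49) is citrate synthase. Pcx, pyruvate carboxylase, which feeds the cycle, was lower by 0.61.

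A pair of genes in these lists went the other way. Cox8b, a cytochrome oxidase subunit of muscle and brown fat, read 9.51, 9.05, 9.43 and 9.46 at day 7, against 8.19, 7.91, 8.35 and 8.25 at day 3, and rose 2.28-fold (1.19, SE 0.12, adjusted p = 0.00024). Acot2, a thioesterase of the mitochondrial matrix, rose by 0.70 (SE 0.09). The falls were small in size, and at a minimum of 1.5-fold 1 gene of oxidation, 2 of the chain and 2 of the cycle passed. Without day 7 arrays 5 and 6 the counts lower were 7, 7 and 5, with medians of −0.29, −0.33 and −0.30. When the spread was estimated from all 35 arrays of the series, 3, 4 and 1 genes were lower. Of all 17958 clusters 856 were lower in that setting, against 927 with the 8 arrays. The chain fell to 9 genes without day 3 array 6, and the cycle to 6 without day 3 array 3, 5 or 6 or day 7 array 6, and to 7 without day 7 array 5.

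Thermogenic genes, which mark brown and beige fat cells, did not move together. Of 16 measured, 2 were higher and 2 lower, with a median of −0.01, and 1 was higher and 3 lower without day 7 arrays 5 and 6. Over all clusters 7.19% were higher and 5.16% lower with the 8 arrays. Ppargc1b, a coactivator of mitochondrial genes, read 8.48, 8.45, 8.45 and 8.47 at day 7, against 9.04, 9.06, 8.99 and 9.09 at day 3 (−0.58, SE 0.04, adjusted p = 5.8e-05), and its 4 day 7 values were nearly the same. Tmem26, a marker of beige cells, was lower by 0.37, though not without day 3 array 1, 5 or 6 or day 7 array 6 (adjusted p 0.011 to 0.012). Dio2, which activates thyroid hormone, was higher by 0.46 (not without day 7 arrays 5 and 6, adjusted p = 0.011) and Hspb7, a small heat shock protein, by 0.58. Ucp1, the uncoupling protein of thermogenic fat, read 6.03, 5.94, 5.99 and 6.22 at day 7 and 5.87, 6.14, 5.95 and 6.08 at day 3. All 8 values lay under the lower quartile of the arrays, and no difference was detectable at that signal.

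Genes of mitosis were lower at day 7. All 26 measured had a negative difference (median −0.42) and 11 passed, where 5.16% of all clusters were lower. Plk1, a kinase that drives entry into mitosis, read 9.19, 9.47, 8.97 and 8.99 at day 7, against 9.87, 10.02, 9.93 and 10.08 at day 3 (−0.82, SE 0.11, adjusted p = 0.00081). A dimmer cluster of Plk1, with a mean of 7.02, differed by −0.19 and did not pass (limma adjusted p = 0.057). Mki67, the proliferation marker, read 7.33, 7.51, 7.20 and 7.19 at day 7, against 7.75, 7.87, 7.84 and 7.92 at day 3 (−0.54, SE 0.07, adjusted p = 0.0012). Day 7 array 4 kept the most mitotic signal: the mean of the 26 genes, relative to the day 3 mean, was −0.173 there and −0.487 to −0.506 on the other day 7 arrays. Without that array 19 genes passed, and without day 3 array 3 or 6 only 6 did. Only 4 passed without day 7 arrays 5 and 6 (median −0.31). Cdc20, which activates the anaphase complex, was lower by 0.78, and Ccnb2, a mitotic cyclin, by 0.71. Cdc20 did not pass without day 3 array 3 or 6 or day 7 array 5 or 6 (adjusted p 0.01 to 0.014), and neither gene passed without day 7 arrays 5 and 6 together (0.031 for Cdc20 and 0.011 for Ccnb2). Genes of DNA replication moved less. Of 32 measured, 3 were lower (median −0.06): Tk1, thymidine kinase (−0.62), Mcm6 of the replicative helicase (−0.37) and Uhrf1 (−0.33), of which Uhrf1 lost its call without any 1 of the 8 arrays (adjusted p 0.01 to 0.033) and Mcm6 without day 3 array 6 or day 7 array 6 (0.011 and 0.01). With day 7 arrays 5 and 6 left out 1 replication gene was lower. Another helicase subunit, Mcm5, read 9.07, 9.43, 9.55 and 9.50 at day 7 and 9.29, 9.52, 9.28 and 9.46 at day 3, which overlap.

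Promoters of the mitotic genes are shown because many genes of the G2 and M phases share a short element, the cell cycle homology region, close to the start site. The letters TTTGAA were searched on both strands of 300 bases, 250 before to 50 after the first start site listed for each gene, in RefSeq sequence of build GRCm38.p6. Of the 11 mitosis genes that were lower, 9 had a sequence and 8 of those held the letters (88.9%), as did 9 of 13 mitosis genes that did not pass (69.2%), against 18.1% of 27025 promoters. A match describes the letters only. Capitals mark the matches.
Plk1, chr7:122159185-122159484, plus strand: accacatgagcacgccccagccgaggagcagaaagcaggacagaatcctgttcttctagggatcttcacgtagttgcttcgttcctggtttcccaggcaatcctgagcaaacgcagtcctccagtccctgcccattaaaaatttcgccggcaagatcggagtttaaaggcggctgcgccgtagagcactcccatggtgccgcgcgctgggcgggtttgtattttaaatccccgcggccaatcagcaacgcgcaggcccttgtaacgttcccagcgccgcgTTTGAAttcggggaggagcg
Cdc20, chr4:118437294-118437593, minus strand: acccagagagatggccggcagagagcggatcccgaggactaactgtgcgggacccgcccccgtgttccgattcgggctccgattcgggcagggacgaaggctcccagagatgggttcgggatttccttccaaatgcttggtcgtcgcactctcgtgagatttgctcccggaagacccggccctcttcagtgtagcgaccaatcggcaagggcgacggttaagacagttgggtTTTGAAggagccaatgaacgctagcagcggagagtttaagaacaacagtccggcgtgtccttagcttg
Ccnb2, chr9:70421505-70421804, minus strand: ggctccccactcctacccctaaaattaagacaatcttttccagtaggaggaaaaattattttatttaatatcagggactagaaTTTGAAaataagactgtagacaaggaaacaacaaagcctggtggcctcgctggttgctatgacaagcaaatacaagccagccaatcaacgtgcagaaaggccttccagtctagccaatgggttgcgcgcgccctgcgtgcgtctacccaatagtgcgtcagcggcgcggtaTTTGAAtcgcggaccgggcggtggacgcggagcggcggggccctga
The match began 18 bases before the start site in Cdc20, and at 4 bases after it in Ccnb2, which holds another farther upstream. In Plk1 it began 30 bases after the start site.

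Brakes of the cell cycle did not rise as a group. Of 17 measured, 2 were higher and 2 lower, where 7.19% of all clusters were higher and 5.16% lower. Cdkn1a, the p21 inhibitor, read 12.12, 11.83, 12.26 and 12.24 at day 7 and 12.11, 12.14, 12.08 and 12.15 at day 3, a difference of −0.01 (SE 0.09, adjusted p = 0.97). Cdkn2c, the p18 inhibitor, read 10.02, 10.27, 9.03 and 9.12 at day 7, against 10.78, 11.08, 10.84 and 11.04 at day 3 (−1.32, SE 0.26, adjusted p = 0.0056). Its fall was deeper on day 7 arrays 5 and 6, and without them it was −0.79 (adjusted p = 0.0035). It did not pass without any 1 day 3 array, or without day 7 array 5 or 6 (adjusted p 0.012 to 0.021). Mdm2, which restrains p53, was higher by 0.57 (SE 0.06), and Ccng2, a cyclin of arrested cells, by 0.72 (SE 0.14). Ccng2 did not pass in the same 6 comparisons (adjusted p 0.015 to 0.022).

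Genes of the hypoxia response and of glycolysis were higher at day 7. Of 32 measured, 23 were higher, 31 had a positive difference and the median was 0.62, where 7.19% of all clusters were higher. Egln3, a prolyl hydroxylase that marks HIF1A for decay, read 9.91, 10.10, 10.87 and 10.94 at day 7, against 7.83, 7.84, 7.99 and 7.95 at day 3. It was 5.86-fold higher (2.55, SE 0.21, adjusted p = 0.00011). Slc16a3, the exporter of lactate, read 10.30, 10.35, 11.24 and 11.26 at day 7, against 8.62, 8.38, 8.72 and 8.43 at day 3, a 4.75-fold rise (2.25, SE 0.23, adjusted p = 0.00025). In both genes day 7 arrays 5 and 6 were the highest, and arrays 1 and 4 still lay clear of every day 3 array. Pdk1, which keeps pyruvate out of mitochondria, read 9.38, 9.62, 10.13 and 10.19 at day 7, against 8.43, 8.51, 8.47 and 8.65 at day 3 (1.32, SE 0.16). Egln1, the main oxygen sensor among the prolyl hydroxylases, read 10.88, 10.85, 11.39 and 11.41 at day 7, against 9.95, 9.84, 9.94 and 9.96 at day 3 (1.21, SE 0.13). Slc2a1, the GLUT1 glucose transporter, rose by 1.16, the mitophagy gene Bnip3 by 1.06 and Vegfa, the angiogenic factor, by 0.45. Not every glycolytic enzyme moved. Tpi1 (0.08) and Aldoa (0.09) did not pass. Nor did Car9, the carbonic anhydrase often used to mark hypoxia (0.14).

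The mean of the 32 hypoxia genes, relative to the day 3 mean, was 0.467 and 0.524 on day 7 arrays 1 and 4 and 0.888 and 0.875 on arrays 5 and 6. The day 3 arrays lay between −0.037 and 0.019. Without arrays 5 and 6, 18 genes were higher (median 0.38), and with arrays 1 and 4 left out in their place, a check chosen after the data were seen, the median was 0.83. Without day 3 array 3 or 6 the count was 14. Macrophage markers, described below, also rose at day 7, with means of 0.522, 0.501, 0.604 and 0.570 on arrays 1, 4, 5 and 6. Their part in the hypoxia group was not tested.

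Promoters of these genes are shown because HIF1A binds a core of 5 letters, ACGTG. Searched in the same 300 bases on both strands, the core was in 15 of 22 promoters of genes that were higher (68.2%) and in 3 of 8 of those that did not pass (37.5%), against 19.7% of all promoters. It overlaps the E-box CACGTG. Mitosis promoters held it too, in 5 of 9 genes that were lower (55.6%). Capitals mark the core.
Egln3, chr12:54203825-54204124, minus strand: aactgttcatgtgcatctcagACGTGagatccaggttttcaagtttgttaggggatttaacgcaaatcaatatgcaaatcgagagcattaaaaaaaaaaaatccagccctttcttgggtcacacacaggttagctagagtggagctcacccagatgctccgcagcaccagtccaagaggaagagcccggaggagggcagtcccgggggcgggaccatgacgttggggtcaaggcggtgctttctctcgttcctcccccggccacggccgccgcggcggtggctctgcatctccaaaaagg
Slc16a3, chr11:120948817-120949116, plus strand: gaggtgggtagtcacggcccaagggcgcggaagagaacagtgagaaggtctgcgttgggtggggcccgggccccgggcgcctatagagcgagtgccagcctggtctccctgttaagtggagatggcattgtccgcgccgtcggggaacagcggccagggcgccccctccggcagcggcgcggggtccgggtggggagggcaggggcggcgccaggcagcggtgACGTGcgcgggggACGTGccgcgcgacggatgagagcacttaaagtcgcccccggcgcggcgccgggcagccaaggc
Egln1, chr8:124949205-124949504, minus strand: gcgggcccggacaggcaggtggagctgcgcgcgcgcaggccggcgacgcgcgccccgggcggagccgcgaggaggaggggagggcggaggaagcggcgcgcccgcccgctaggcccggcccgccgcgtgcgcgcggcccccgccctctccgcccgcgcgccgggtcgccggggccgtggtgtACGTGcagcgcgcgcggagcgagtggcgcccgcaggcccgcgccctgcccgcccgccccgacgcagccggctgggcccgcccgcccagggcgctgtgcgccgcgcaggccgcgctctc
Slc16a3 holds 2 cores close to its start site, beginning 27 and 14 bases before it. In Egln1 the core begins 68 bases before the start site, and in Egln3 it begins 229 bases before it.

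Macrophage markers were higher at day 7. Of 21 measured, 14 were higher, with a median of 0.63, where 7.19% of all clusters were higher. Mrc1, the mannose receptor, read 8.11, 8.29, 8.09 and 7.94 at day 7, against 6.48, 6.37, 6.59 and 6.58 at day 3, a 3.03-fold rise (1.60, SE 0.08, adjusted p = 1.1e-05). Laptm5, a lysosomal protein of blood cells, read 10.05, 10.00, 10.50 and 10.46 at day 7, against 9.0, 8.86, 8.92 and 8.97 at day 3 (1.31, SE 0.11, adjusted p = 0.00012). Day 7 and day 3 values did not overlap in either gene, and for Mrc1 arrays 5 and 6 were not the highest. Itgam (0.99), Cd53 (0.99), Adgre1 (0.84), the receptor gene Csf1r (0.79), Cd68 (0.50) and the myeloid factor gene Spi1 (0.71) rose as well. Others did not: C1qa (−0.32), C1qc (−0.11), Cx3cr1 (−0.06), Cd163 (0.01) and Aif1 (0.11). Cd163 and Aif1 lay under the lower quartile of the arrays. The summed linear intensity of the 21 markers was 8227 to 9450 at day 7 and 5108 to 5542 at day 3. The count was 10 without day 7 arrays 5 and 6 (median 0.58), and leaving out any 1 array gave 12 to 14.

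Few markers of other cell types passed. No marker passed among 13 endothelial, 11 skeletal muscle, 10 epithelial or mesothelial and 5 Schwann cell genes with limma at an adjusted p under 0.01. An unadjusted p under 0.05 was found for 3, 0, 2 and 2 of them, beside 6251 of all 17958 clusters. The median log2 intensity of these lists was 7.41, 6.85, 7.01 and 7.45, so dim signal limits them. Under the lower quartile of the arrays lay 2 of the muscle and 3 of the epithelial or mesothelial genes. Of 14 mural and contractile genes 1 was lower, Abcc9, a potassium channel subunit of pericytes (−0.91, SE 0.14). One of 8 lymphocyte genes, Il7r, was higher (0.47), though not without day 3 array 3 or 6 or day 7 array 6 (adjusted p 0.01 to 0.012) or without day 7 arrays 5 and 6 together (0.031). Precursor markers split. Sema3c (0.79), Fmo2 (1.14), Anxa3 (0.60) and F3 (0.42) were higher, and Cd55 (−0.90) was lower, of 14 measured. Over all clusters 7.19% were higher and 5.16% lower. Pdgfra, the receptor that marks fat cell precursors, read 12.12, 12.42, 11.98 and 12.01 at day 7 and 12.23, 12.24, 12.30 and 12.24 at day 3 (−0.12, SE 0.09, adjusted p = 0.39). Dlk1, another precursor gene, differed by 0.32 (SE 0.11, adjusted p = 0.071). Fmo2 did not pass without day 3 array 3 or 6 (adjusted p 0.012 and 0.011), and Anxa3 and Cd55 did not without any 1 day 3 array or day 7 array 5 or 6 (0.012 to 0.024).

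Genes of inflammation and the acute phase rose in part. Of 22 measured, 10 were higher (median 0.21), where 7.19% of all clusters were higher. Lcn2, lipocalin 2, which binds bacterial iron carriers and is secreted by fat cells and macrophages, read 13.00, 12.62, 13.28 and 13.31 at day 7, against 11.05, 10.92, 10.99 and 10.93 at day 3, a 4.22-fold rise (2.08, SE 0.13, adjusted p = 4e-05). The cytokine gene Il6 read 8.71, 8.74, 8.99 and 9.04 at day 7, against 7.60, 7.02, 7.43 and 7.39 at day 3 (1.51, SE 0.12, adjusted p = 0.0001). Both genes separated the days on every array. Ptx3, a long pentraxin, rose by 0.98, Cfb, complement factor B, by 0.90 and Ptgs2, a prostaglandin synthase, by 0.78, though Ptgs2 passed only without day 7 array 4 when 1 array was left out (otherwise adjusted p 0.013 to 0.021). Tnf (−0.05), Il1b (0.13) and the acute phase genes Hp (−0.49) and Orm1 (−0.50) did not pass. The count was 8 without day 7 arrays 5 and 6, and 6 were higher without day 3 array 3, 5 or 6 or without day 7 array 5. The macrophage markers above rose at day 7 as well, and their part was not tested.

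Among 21 chemokines and their receptors 6 were higher and 2 were lower, where 7.19% of all clusters were higher and 5.16% lower. Without day 7 arrays 5 and 6, 4 were higher and 1 lower. Cxcl5, which draws neutrophils, read 9.59, 9.28, 9.92 and 9.99 at day 7, against 7.95, 7.81, 7.92 and 7.89 at day 3 (1.80, SE 0.14, adjusted p = 7.6e-05). Ccl3 (0.94), which draws monocytes, and Ackr3 (0.84), a scavenger receptor for Cxcl12, also rose, though Ackr3 did not pass without day 3 array 1, 3 or 5 (adjusted p 0.01 to 0.012). Cxcl13, which draws B cells, had the largest fall of any named gene. It read 8.90, 9.06, 6.27 and 6.46 at day 7, against 10.67, 10.30, 10.50 and 10.42 at day 3, a 6.96-fold lower mean (−2.80, SE 0.60, adjusted p = 0.0088). Arrays 5 and 6 carried most of it, and without them the difference was −1.49 (adjusted p = 0.00022). It did not pass without any 1 day 3 array, or without day 7 array 5 or 6 (adjusted p 0.019 to 0.026). The other lower chemokine, Cxcl9 (−0.81), passed only without day 7 array 1 when single arrays were left out (otherwise adjusted p 0.013 to 0.024). Of 17 interferon genes 2 were lower, Gbp3 (−0.68) and Irf7 (−0.56), and 15 did not pass, where 5.16% of all clusters were lower.

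**Figure D2:**
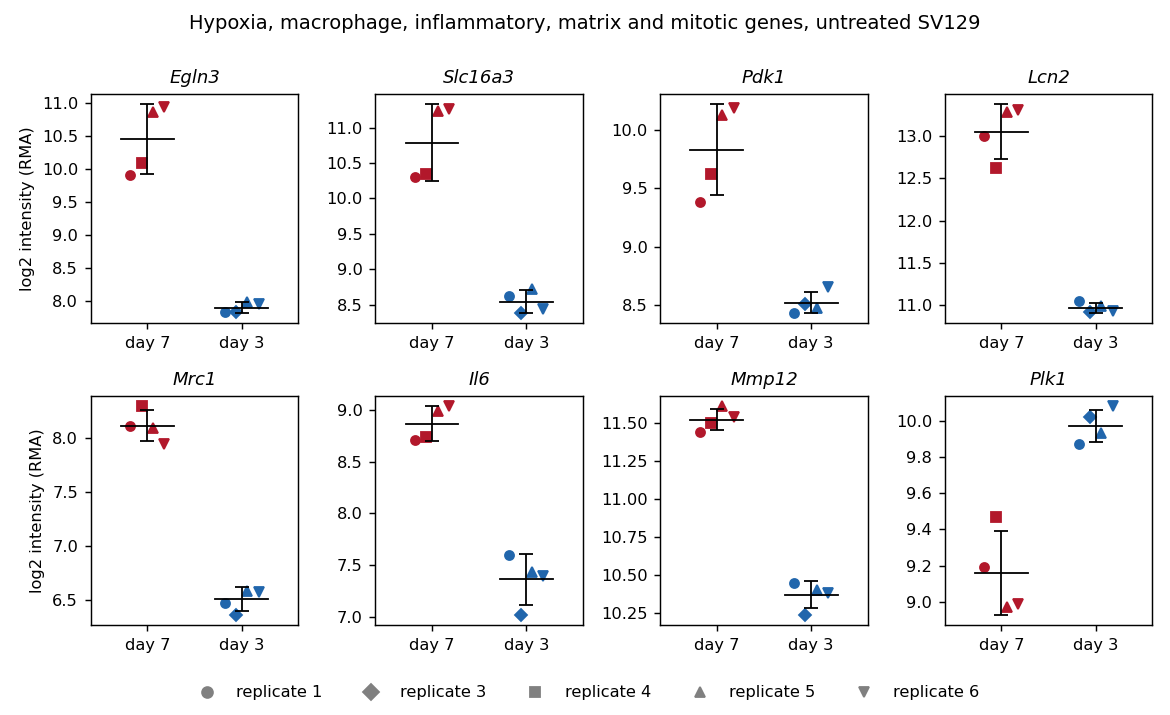
Log2 intensity of 8 genes on each untreated SV129 array, day 7 left and day 3 right, with markers for replicate numbers, horizontal bars for means and whiskers for SD (n = 4 each). Egln3, Slc16a3, Pdk1, Lcn2, Mrc1, Il6 and Mmp12 lie higher at day 7 and Plk1 lies lower, with replicates 5 and 6 above 1 and 4 in the 3 hypoxia genes.

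The largest rise of a named gene was that of Grem1. Grem1, an antagonist of bone morphogenetic proteins, read 10.04, 10.13, 10.91 and 10.95 at day 7, against 8.00, 7.67, 8.04 and 7.81 at day 3, a 6.18-fold rise (2.63, SE 0.21, adjusted p = 8.1e-05). Penk, the precursor of enkephalins, read 12.40, 11.76, 12.61 and 12.59 at day 7, against 10.10, 10.11, 9.98 and 10.17 at day 3 (2.25, SE 0.17, adjusted p = 6.4e-05). The gap between days was wider than the whole range within either day for both genes. The largest rises were picked only among genes whose days did not overlap, so this separation follows in part from the choice. Bmp7, a bone morphogenetic protein that favours brown fat, read 7.80, 7.89, 7.80 and 7.75 at day 7, against 9.24, 8.81, 8.94 and 9.13 at day 3 (−1.22, SE 0.09, adjusted p = 5.9e-05). Others of the 12 largest rises were the bombesin receptor gene Grpr (2.00), the ribonuclease gene Rnase2a (2.00), which has close paralogs that probes may share, the decoy receptor gene Il13ra2 (1.91), Ch25h, which makes 25-hydroxycholesterol (1.91), Serpinb2, an inhibitor of plasminogen activators (1.90), the transcription factor gene Foxf1 (1.90) and the Wnt antagonist gene Nkd2 (1.82). All 10 of these genes passed in each comparison that left out 1 array. The lists around them held genes that passed in both directions, where 7.19% of all clusters were higher and 5.16% lower. Of 29 Wnt and BMP genes 3 were higher and 1 was lower, with a median of 0.00, and 2 were higher and 2 lower without day 7 arrays 5 and 6. Of 22 growth factor genes 7 were higher and 2 were lower, led by Fgf18 (0.74), Inhba (0.54), an activin subunit, and Tgfb1 (0.51). Without day 7 arrays 5 and 6, 3 growth factor genes were higher and 1 was lower. The mean of that list, relative to the day 3 mean, was −0.019 and 0.113 on day 7 arrays 1 and 4 and −0.272 and −0.257 on arrays 5 and 6.

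After Cxcl13, the largest fall among the named genes that passed was that of Enpep. Enpep, a peptidase that trims angiotensin, read 9.21, 9.41, 8.19 and 8.13 at day 7, against 10.63, 10.34, 10.42 and 10.38 at day 3 (−1.71, SE 0.27, adjusted p = 0.0022). Cmbl, a hydrolase, read 8.44, 8.12, 7.86 and 7.92 at day 7, against 9.69, 9.41, 9.48 and 9.53 at day 3 (−1.44, SE 0.12, adjusted p = 0.0001). The locus A530016L24Rik (−1.67) and the retinol dehydrogenase gene Rdh12 (−1.57) fell with them. All 4 passed whichever single array was left out. Rab3b (−1.70), Aldh1a7 (−1.47), Myl1 (−1.43), Fap (−1.41) and Adamts12 (−1.38) passed with the 8 arrays but not without several single arrays, day 3 arrays 3 and 6 among them (adjusted p 0.01 to 0.028 over the arrays concerned). B3galt2 (−1.51) lost its call without day 3 array 3 or 6 (adjusted p 0.01 and 0.011) and Efhd1 (−1.50) without day 3 array 6 (0.01).

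Of 21 collagen genes 2 were higher and 3 lower, and of 40 matrix glycoproteins 5 were higher and 3 lower. Over all clusters 7.19% were higher and 5.16% lower. Both lists split between the day 7 arrays. Relative to the day 3 mean, the collagens averaged −0.054 and 0.014 on day 7 arrays 1 and 4 and −0.470 and −0.442 on arrays 5 and 6. The matrix glycoproteins averaged 0.003 and 0.089 on arrays 1 and 4 and −0.396 and −0.418 on arrays 5 and 6. The median collagen difference was −0.12 with the 8 arrays, −0.01 without arrays 5 and 6 and −0.38 without arrays 1 and 4. Col8a1, a short-chain collagen, read 8.73, 8.79, 9.37 and 9.24 at day 7, against 7.64, 7.80, 7.72 and 7.71 at day 3 (1.31, SE 0.13, adjusted p = 0.00028). Tnc, tenascin C of healing and remodelling tissue, read 11.51, 11.66, 11.68 and 11.71 at day 7, against 10.79, 10.62, 10.84 and 10.60 at day 3 (0.93, SE 0.07, adjusted p = 7.7e-05). Col12a1 rose by 0.70. Sparcl1 (−1.12) was lower, as were Col15a1 (−1.15) and Nid2 (−1.30) of basement membranes, both of which did not pass without any 1 day 3 array (adjusted p 0.012 to 0.017), nor did Nid2 without day 7 array 5 or 6 (0.012 and 0.01). Col1a1, the main fibrillar collagen, read 12.87, 12.92, 12.42 and 12.34 at day 7 and 12.82, 12.68, 12.85 and 12.69 at day 3 (−0.12, SE 0.13, adjusted p = 0.57). Of 25 matrix enzymes and inhibitors 6 were higher, with the collagenase gene Mmp13 up by 1.32, the macrophage elastase gene Mmp12 by 1.15, Mmp9 by 0.79 and the inhibitor gene Timp1 by 0.63. Mmp12 read 11.44, 11.50, 11.61 and 11.54 at day 7, against 10.45, 10.24, 10.40 and 10.38 at day 3. Macrophage markers rose at day 7 as well, and their part in these enzymes was not tested.

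Several smaller groups follow, beside a share over all clusters of 7.19% higher and 5.16% lower. Of 26 antioxidant genes 6 were higher and 4 were lower. Slc7a11, the cystine importer, read 10.22, 9.71, 10.38 and 10.35 at day 7, against 8.82, 8.56, 8.76 and 8.63 at day 3 (1.47, SE 0.14, adjusted p = 0.00019), and Hmox1, heme oxygenase 1, rose by 0.89. Prdx3, a mitochondrial peroxiredoxin, and the superoxide dismutase gene Sod1 were lower by 0.41 and 0.36, the call of Sod1 ending without any 1 day 3 array (adjusted p 0.013 to 0.019). Cholesterol synthesis had 8 of 19 genes lower (median −0.11), and the other 11 did not pass. The lower genes were led by Dhcr7 (−0.58), Nsdhl (−0.42) and Mvk (−0.38), and 4 were lower without day 7 arrays 5 and 6. The insulin pathway had 2 of 12 genes higher and 3 lower, with Gbe1, the glycogen branching enzyme, up by 1.16, and Pik3r1 (−0.74) and Irs1 (−0.49), which relay the insulin signal, down. Of 13 stress genes of the endoplasmic reticulum 3 were higher, Atf3 (0.71), Trib3 (0.54) and Ddit3 (0.46), and 1 was lower, Pdia4. With 1 array left out Pdia4 passed only without day 7 array 4 (otherwise adjusted p 0.011 to 0.024). Of 13 clock genes 3 were higher, led by Bhlhe40 (0.84) and Nr1d2 (0.81), and 10 did not pass. Of 10 steroid genes 2 were higher, among them Hsd11b1, which activates glucocorticoids (0.50). The 2 lower ones included Esr1, the oestrogen receptor (−0.43). Hsd11b1 did not pass without day 3 array 3, 5 or 6 or day 7 array 6 (adjusted p 0.011 to 0.014). With day 7 arrays 5 and 6 left out, antioxidant genes had 4 higher and 2 lower, the insulin pathway had 1 higher and 1 lower, stress genes had 2 higher, clock genes 2 higher and steroid genes 1 higher and 1 lower. Irs1, Ddit3, Hsd11b1 and Pdia4 did not pass there (0.011, 0.022, 0.025 and 0.034). Mvk lost its call without day 3 array 3 or 6, and Bhlhe40 and Ddit3 without day 3 array 6 (0.01 to 0.011).

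The same 2 times in C57BL/6J showed which of these differences were shared between the strains. Of the 2218 clusters called in SV129, 1701 had the same sign in C57BL/6J and 517 the opposite one. Over all clusters the differences of the strains had a Pearson correlation of 0.471, and the share with the same sign was not counted. Both strains called 483 clusters in the same direction (21.8% of the SV129 calls and 42.4% of the 1140 in C57BL/6J) and 36 in opposite directions. The difference between the strains was tested as the SV129 difference minus the C57BL/6J difference over the 16 untreated arrays. It lay above 0 for 275 clusters (1.53%) and below 0 for 499 (2.78%) at an adjusted p under 0.01. Of these 774, 413 were lower at day 7 in SV129 and higher in C57BL/6J. With each array centred on its median the split was 493 above and 483 below. The count above 0 was 685 without SV129 day 7 array 1, and 161 to 173 without SV129 day 3 array 3 or 6 or day 7 array 5 or 6. With the spread taken from all 35 arrays 48 lay above and 47 below.

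The lipid and mitochondrial groups differed between the strains. Lipid storage genes had 8 of 16 lower in SV129, while 8 of 16 were higher in C57BL/6J, where 3.47% of all clusters were (median −0.44 in SV129 and 0.38 in C57BL/6J). The strain difference passed, below 0, for 9 of the 16, against 2.78% of all clusters. Plin1 averaged 11.20 ± 0.11 at day 7 and 12.02 ± 0.05 at day 3 in SV129, and 11.51 ± 0.17 at day 7 and 11.33 ± 0.11 at day 3 in C57BL/6J (SD, n = 4 each). The strain difference was −0.99 (SE 0.11, adjusted p = 6e-05). Cidec averaged 8.12 ± 0.38 at day 7 and 9.13 ± 0.24 at day 3 in SV129, and 9.03 ± 0.29 at day 7 and 8.32 ± 0.10 at day 3 in C57BL/6J, a strain difference of −1.72 (SE 0.24, adjusted p = 0.00037). For both genes SV129 had the higher mean at day 3 and the lower mean at day 7. For Adipoq the strain difference was −1.39 (SE 0.18, adjusted p = 0.00024), with a rise of 0.56 in C57BL/6J. The strain difference passed, below 0, for 5 of 16 genes of triglyceride synthesis, 11 of 18 of fatty acid oxidation, 16 of 24 of the respiratory chain and 12 of 17 of the tricarboxylic acid cycle. The C57BL/6J medians of these lists were 0.10, 0.14, 0.10 and 0.13. Cox8b rose in both strains, by 1.19 in SV129 and by 2.41 in C57BL/6J (strain difference −1.22, SE 0.22, adjusted p = 0.0022).

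The 8 genes with the smallest p of the strain difference included enzymes and carriers of fat cell metabolism. Adhfe1, which oxidises hydroxybutyrate, averaged 10.33 ± 0.09 at day 7 and 10.87 ± 0.05 at day 3 in SV129, and 10.61 ± 0.04 at day 7 and 10.18 ± 0.05 at day 3 in C57BL/6J (−0.97, SE 0.07, adjusted p = 3.5e-06). Idh3a (−0.92), Sdhd (−0.76), Rxrg (−1.19), Lgals12, a galectin of lipid droplets (−1.27), Smoc1, a matrix protein (−1.0), and Mknk2, a kinase of translation (−1.04), also lay below 0. Tnc was the only one of the 8 above 0. It averaged 11.64 ± 0.09 at day 7 and 10.71 ± 0.12 at day 3 in SV129, and 11.31 ± 0.13 at day 7 and 11.61 ± 0.04 at day 3 in C57BL/6J, a strain difference of 1.22 (SE 0.10, adjusted p = 6.1e-06). All 8 passed without SV129 day 7 arrays 5 and 6, but with the spread taken from all 35 arrays only Smoc1 and Mknk2 did.

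**Figure D3:**
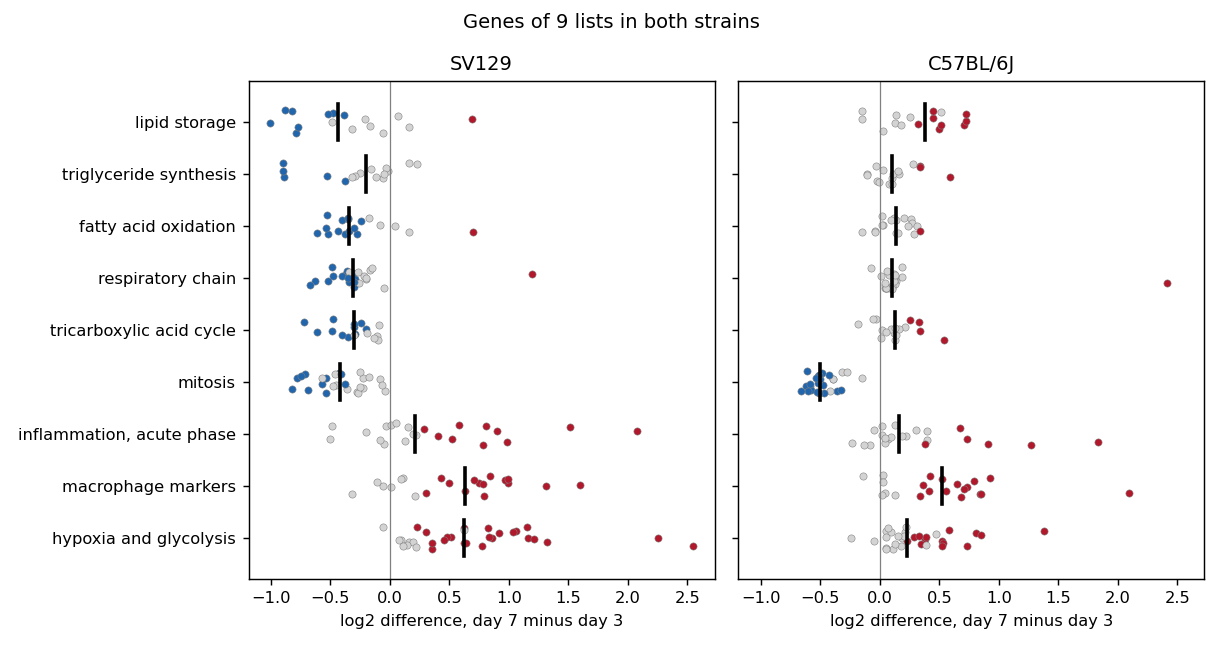
Log2 difference, day 7 minus day 3, of each gene of 9 lists in SV129 (left) and C57BL/6J (right). Each point is a gene, red where higher and blue where lower at an adjusted p under 0.01 and grey otherwise, and black bars are list medians. The lipid and mitochondrial lists lie mostly below 0 in SV129 and above 0 in C57BL/6J, while mitosis lies below 0 and macrophage markers and hypoxia genes lie mostly above 0 in both.

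Mitosis genes, macrophage markers and hypoxia genes had medians of the same sign in both strains. Over all clusters, 5.16% were lower and 7.19% higher in SV129, and 2.87% lower and 3.47% higher in C57BL/6J. The strain difference passed above 0 for 1.53% of all clusters and below 0 for 2.78%. Its share over all clusters at an unadjusted p under 0.05 was not counted, so the counts at that cut have no background beside them. Mitosis genes were lower, 11 of 26 in SV129 and 21 of 26 in C57BL/6J (median −0.42 in SV129 and −0.50 in C57BL/6J), and no strain difference passed with limma (6 had an unadjusted p under 0.05). DNA replication genes had 3 of 32 lower in SV129 and 12 in C57BL/6J (median −0.06 in SV129 and −0.23 in C57BL/6J), and 13 strain differences had an unadjusted p under 0.05, of which none passed. Macrophage markers were higher, 14 of 21 in SV129 and 15 in C57BL/6J (median 0.63 in SV129 and 0.52 in C57BL/6J), with no strain difference passing and 9 at an unadjusted p under 0.05. Hypoxia genes were higher for 23 of 32 in SV129 and 14 in C57BL/6J (median 0.62 in SV129 and 0.23 in C57BL/6J). The strain difference had an unadjusted p under 0.05 for 22 of the 32 and passed for 2, both above 0. Slc16a3 rose by 2.25 in SV129 and by 0.73 in C57BL/6J (1.51, SE 0.25, adjusted p = 0.0013), and the other was P4ha2, a collagen prolyl hydroxylase. Lcn2 rose in both strains, by 2.08 in SV129 and by 1.83 in C57BL/6J. For Grem1 and Penk the C57BL/6J difference was 1.12 (SE 0.36) and 0.85 (SE 0.85), neither of which passed. The strain difference did not pass for either gene, so a difference between the strains was not shown for them.

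**Figure D4:**
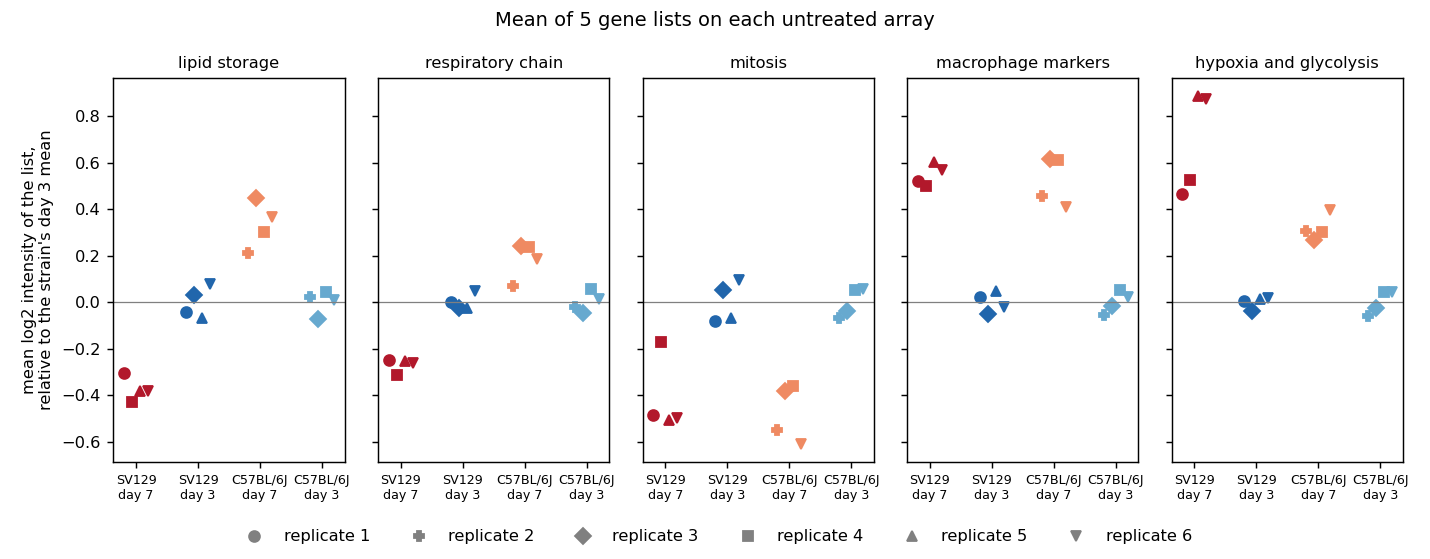
Mean log2 intensity of 5 gene lists on each untreated array, relative to the day 3 mean of the same strain, with SV129 day 7, SV129 day 3, C57BL/6J day 7 and C57BL/6J day 3 from left to right and markers for replicate numbers. The SV129 day 7 arrays lie at −0.429 to −0.306 for lipid storage and at 0.467 to 0.888 for hypoxia and glycolysis, where replicates 5 and 6 are the highest.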

How the data were processed

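RNA of whole cultures was hybridised to Mouse Exon 1.0 ST arrays, 1 per culture. The deposited values are log2 intensities that the authors computed with RMA in Affymetrix Power Tools, which corrects background, normalizes between arrays and summarises probes into transcript clusters. The version of the tool is not given in the sources used here. RMA makes arrays alike in their distribution, so a change in total RNA is not visible, and the number of arrays limits the precision. Of 17958 clusters, 15621 carried 1 gene symbol in the platform annotation, 1370 several and 967 none, and only those with 1 symbol were named. Groups followed the labels. SV129 day 7 and day 3 were compared over their 8 arrays with limma 3.58.1 in R 4.3.3 (lmFit, eBayes, Benjamini-Hochberg adjustment over all clusters, threshold 0.01). The strain difference was fitted over the 16 untreated arrays, and C57BL/6J alone over its 8. Tables were handled with Python 3.11.15, pandas 2.3.3 and numpy 2.4.6, and figures were drawn with matplotlib 3.10.9. The scripts were tested on simulated data.

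The 36 gene lists held 730 genes, of which 646 were measured. Where a gene had several clusters (10 list genes), the 1 with the highest mean was used, and no pair of clusters passed in opposite directions. For Plk1, Cycs, Pgam1, Higd1a and Fdps the cluster used passed and the other did not (limma adjusted p 0.057, 0.011, 0.011, 0.012 and 0.045). Genes were named by a rule: the 12 largest rises and falls among clusters that passed and whose groups did not overlap, up to 4 passing members of each list, or 2 members where none passed, the 8 smallest p-values of the strain difference, and 14 genes chosen for their role. Other genes named as examples of a list (among them Angptl4, Klf5, Cebpb, Lpin1, Retn, Scd1, Slc2a1, Bnip3, Vegfa, P4ha2, Cxcl9, Ptgs2, Sod1 and F3) were picked with their values already seen. The members and lists were chosen with earlier results of these data known. Promoter sequence was RefSeq's, build GRCm38.p6, with 1 promoter for each of 27025 genes. Alternatives covered the threshold, a minimum fold, the arrays in the fit, the variance prior, array weights, normalization, dim clusters, a replicate block and leaving out arrays.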

Additional observations from a re-analysis of the deposited data

Results flagged for a closer look

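The day difference of SV129 minus that of C57BL/6J passed for 50 of the 155 named genes (limma, adjusted p under 0.01, log2 scale). It lay below 0 for most of them. Among genes of lipid storage, triglyceride and fatty acid synthesis these were Cidec (−1.72), Dgat1 (−1.23), Dgat2 (−1.18), Aqp7 (−1.14), Gpat3 (−1.0), Plin1 (−0.99), Fabp4 (−0.92) and Fasn (−0.51). Among mitochondrial genes they were Cox8b (−1.22), Pcx (−1.14), Adhfe1 (−0.97), Idh3a (−0.92), Sdhd (−0.76), Sdhb (−0.76), Hadh (−0.69), Dld (−0.62), Acaa2 (−0.50), Cs (−0.47), Etfb (−0.46) and Ndufb8 (−0.45), and among regulators and secreted products of fat cells Adipoq (−1.39), Lgals12 (−1.27), Rxrg (−1.19), Cebpa (−0.83), Agt (−0.69), Ppargc1b (−0.58), Srebf1 (−0.56), Zfp423 (−0.42) and Pparg (−0.33). The other genes below 0 were A530016L24Rik (−1.72), B3galt2 (−1.66), Cmbl (−1.56), Enpep (−1.52), Rdh12 (−1.37), Aldh1a7 (−1.36), Mknk2 (−1.04), Smoc1 (−1.0), Gbp3 (−0.69) and Pik3r1 (−0.48). The genes above 0 were Slc16a3 (1.51), Rnase2a (1.37), Col8a1 (1.24), Tnc (1.22), Fmo2 (1.07), Col12a1 (0.83), Anxa3 (0.80), Mmp9 (0.76), Cfb (0.71), Inhba (0.68) and Fstl3 (0.50). With the spread taken from all 35 arrays, 10 of the 50 still passed, and without SV129 day 7 arrays 5 and 6, 35 did.

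A single array lay far from the other 3 of its group, by Dixon's criterion, in 19 of 310 groups of 4 values, and chance alone flags about 1 in 20. There were 9 such values at day 7 and 10 at day 3. On day 7 array 1 Srebf1 was highest (10.62) and Smoc1 was lowest (10.07). On day 7 array 4 Serpinb2 was lowest (7.94), Cox8b was lowest (9.05), Ccnb2 was highest (10.30), Timp1 was lowest (12.92) and Sfrp1 was highest (12.33). On day 7 array 5 Tmem26 was highest (7.65). On day 7 array 6 Sdhd was lowest (10.26). On day 3 array 1 Grpr was lowest (5.39) and Irf7 was highest (8.87). On day 3 array 3 Egln1 was lowest (9.84). On day 3 array 5 Nr1d2 was highest (10.07) and Pdgfra was highest (12.30). On day 3 array 6 Mcm6 was highest (8.58), Ackr3 was highest (9.65), Gbe1 was highest (10.06), Eif2s3y was highest (9.99) and Rxrg was highest (9.43). Eif2s3y lies on the Y chromosome.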

How the results depend on the processing

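No named gene that passed changed direction in any alternative, where a change of sign counts only if the gene passed in one of the settings. In SV129, clusters higher and lower at day 7 (1291 and 927) numbered 2612 and 1788 with array weights, 260 and 298 with a fixed replicate block, 532 and 410 without day 7 arrays 5 and 6, 2537 and 1671 without arrays 1 and 4 (an alternative chosen after seeing the data), 2496 and 1771 at a threshold of 0.05, and 373 and 222 at a minimum of 1.5-fold. Leaving out 1 array gave 560 to 1807 higher and 420 to 1207 lower. The strain difference above 0 (275) numbered 474 with quantile normalization, 493 with median centring, 48 with 35 arrays, 48 with the block, 135 without arrays 5 and 6, 1007 without 1 and 4 and 788 at 0.05. Below 0 (499) it numbered 47 with 35 arrays, 197 with the block, 306 without 5 and 6, 958 without 1 and 4 and 991 at 0.05. Leaving out 1 array gave 161 to 685 above and 346 to 623 below.

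With all 35 arrays, 4 lipid storage, 3 oxidation, 4 respiratory and 1 cycle genes were lower, beside 856 of all 17958 clusters. With the replicate block 4 lipid storage, 2 triglyceride, 2 oxidation, 2 respiratory and 1 cycle genes were lower, and 9 hypoxia, 9 macrophage and 5 inflammation genes were higher. Without day 7 arrays 5 and 6, 7 oxidation, 7 respiratory, 5 cycle and 4 mitosis genes were lower. Array weights gave 8 triglyceride and 19 mitosis genes lower, leaving out day 7 arrays 1 and 4 gave 8 triglyceride genes, and a threshold of 0.05 gave 17 mitosis genes. At a minimum of 1.5-fold, 5 lipid storage, 3 triglyceride, 1 oxidation, 2 respiratory, 2 cycle and 5 mitosis genes were lower and 6 inflammation genes higher. Leaving out 1 array gave 4 to 8 lipid storage, 4 to 6 triglyceride, 9 to 13 oxidation, 9 to 15 respiratory, 6 to 11 cycle and 6 to 19 mitosis genes lower, and 14 to 24 hypoxia, 12 to 14 macrophage and 6 to 10 inflammation genes higher. The cause of these shifts was not tested. Of the 138 named genes that passed, 83 still did with the fixed block, 137 with a random block, 112 without arrays 5 and 6, 119 with 35 arrays and 97 to 137 when 1 array was left out. The labels give numbers 1, 5 and 6 on both days. The deviations of same-numbered arrays correlated at 0.0959, 0.014 and −0.00628, and those of differently numbered arrays at −0.0799 to 0.0548. The numbers were not taken to pair the cultures, though these few low values cannot settle whether they do. Dim signal limits Ucp1, Lep, Cd163, Aif1 and other list members under the lower quartile. Among those were 4 of 8 lymphocyte, 3 of 10 epithelial or mesothelial and 2 of 11 skeletal muscle genes.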
